A study of Homo sapiens with 9 samples.

Results

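The 3 genes of the RUNX transcription factor family (RUNX1, RUNX2 and RUNX3) and CBFB, the gene of their shared partner subunit, were examined in the T-cell acute lymphoblastic leukemia line DND-41, an established human cell line. Chromatin was profiled by CUT&RUN, in which an antibody tethers micrococcal nuclease to its target and the released DNA is sequenced. The control of the RUNX1 library was labeled an input, so whether that library was made in the same way is not certain. Peak lists of 5 libraries were used. The antibodies were against H3K4me3, BRG1 and RUNX1, in cells without a treatment label, and against H3K27ac, in cells given 100 nM ACBI-1 or its vehicle DMSO. H3K4me3 marks active promoters, and H3K27ac marks promoters and enhancers in use. BRG1 is the ATPase of SWI/SNF chromatin remodeling complexes, and ACBI-1 a degrader of BRG1, its paralog BRM and the SWI/SNF subunit PBRM1. The length of treatment is not given in the sources used here. All libraries came from this 1 cell line, with 1 library for each antibody and treatment. Differences therefore lack a check by replicates and carry no p-values.

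Members were the peaks that overlapped the interval of a gene widened by 25 kb on each side, in hg19. The windows were chr21:36135001-36447000 for RUNX1, chr6:45271001-45544000 for RUNX2, chr1:25201001-25317000 for RUNX3 and chr16:67038001-67160000 for CBFB. They held 265 of the 183634 peaks of the 5 lists, with 140 in the RUNX1 window, 54 in RUNX2, 32 in RUNX3 and 39 in CBFB. The intervals are rounded to 1 kb, so positions relative to a gene's 5′ end are exact only to that rounding. At the edges, a DMSO H3K27ac peak of 892 bp crossed the upstream edge of the RUNX2 window, while DMSO peaks of 394 bp and 1978 bp lay 0.816 kb beyond the CBFB window and 0.887 kb beyond the RUNX3 window.

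RUNX proteins bind DNA through the Runt domain, and CBFB, which does not itself touch DNA, joins them and strengthens that binding. RUNX1 is required for the emergence of blood stem cells and acts through T-cell development, RUNX3 is known for CD8 lineage choice and silencing of CD4, and RUNX2 is best known as the regulator of bone formation. Each RUNX gene is transcribed from a distal promoter at its 5′ end and a proximal promoter inside the gene, and RUNX proteins are known to bind RUNX genes. RUNX1 and RUNX3 lie on the minus strand, so their 5′ ends are at the high coordinate.

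The promoters are shown because RUNX1 occupied the 5′ ends of the family, and 2 of these starts carry clustered RUNX motifs. The sequences are from RefSeq in GRCh38.p14 and run from 200 bases before to 30 bases after an annotated start: chr6:45328130-45328359 on the plus strand for the distal RUNX2 start, chr1:24964981-24965210 on the minus strand for the distal RUNX3 start and chr21:34888670-34888899 on the minus strand for the RUNX1 start in the table, which lies inside the gene. These coordinates cannot be set against the hg19 peaks, and none was converted. Capitals mark ACCACA, the reverse complement of the RUNX core motif TGTGGT.
RUNX2 distal start: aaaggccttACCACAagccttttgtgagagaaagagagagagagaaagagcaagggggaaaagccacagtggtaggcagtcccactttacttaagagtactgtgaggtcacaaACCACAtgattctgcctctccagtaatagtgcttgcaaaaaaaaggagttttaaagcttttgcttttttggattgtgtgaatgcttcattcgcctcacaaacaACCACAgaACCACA
RUNX3 distal start: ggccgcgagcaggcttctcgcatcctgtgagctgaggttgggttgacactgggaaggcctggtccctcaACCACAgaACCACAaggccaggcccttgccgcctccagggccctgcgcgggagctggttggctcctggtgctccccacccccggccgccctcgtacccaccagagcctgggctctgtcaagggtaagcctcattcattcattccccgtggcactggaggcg
RUNX1 internal start: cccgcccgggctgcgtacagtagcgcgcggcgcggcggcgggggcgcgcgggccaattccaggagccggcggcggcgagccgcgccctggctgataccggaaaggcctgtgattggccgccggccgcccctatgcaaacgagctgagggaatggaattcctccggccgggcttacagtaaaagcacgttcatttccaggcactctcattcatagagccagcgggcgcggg

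Both strands of the 300-base promoters (250 bases before to 50 after each start) were searched for TGTGGT and for TGCGGT. The distal RUNX2 promoter held 4 matches to TGTGGT, and only 5 of the 35116 promoters in the table held 4 or more. They began at positions -191, -87, 17 and 25, where the start is position 1 and the base before it -1. A match to TGCGGT followed at position 33, just past the printed stretch. The distal RUNX3 promoter held 2 matches to TGTGGT, at -131 and -123. In both genes 2 matches were joined with the same spacing as ACCACAGAACCACA, and the longest stretch that the RUNX2 and RUNX3 distal promoters shared was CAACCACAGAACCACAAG, 18 bases. The joined element was taken from this shared stretch, so RUNX2 and RUNX3 match it by construction. It occurred in 3 of the 35116 promoters, the third being that of the olfactory receptor gene OR52N2. At least 2 matches to TGTGGT, as in RUNX3, occurred in 459 promoters (1.31%). TGTGGT alone occurred in 13.1% of promoters and either core in 19.6%. The RUNX1 internal start and the second starts of RUNX2 and RUNX3 held neither core. The table matched 5 starts of the 3 RUNX genes.

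The RUNX1 antibody gave a peak over the 5′ end, as rounded to 1 kb, of each of the 4 genes. The peak of 1129 bp at the RUNX1 gene was at chr21:36420920-36422048, that of 434 bp at RUNX2 at chr6:45295764-45296197, that of 753 bp at RUNX3 at chr1:25291258-25292010 and that of 1436 bp at CBFB at chr16:67062509-67063944. The CBFB peak was among the widest RUNX1 peaks, at rank 394 of 19893 by width. The active promoter mark did not follow in all 4: H3K4me3 was called within 1 kb of the 5′ end of RUNX1 and CBFB and not of RUNX2 or RUNX3. DMSO H3K27ac was called there in all 4 genes and BRG1 in 0 of 4. How often other gene starts hold such peaks was not counted, since no hg19 annotation was used. Whether these counts are unusual is therefore not known. By these calls, the 5′ ends of RUNX2 and RUNX3 had RUNX1 and H3K27ac without an H3K4me3 peak. The joined motif cannot be compared over the 4 genes, because the distal RUNX1 promoter and the CBFB promoter were not searched.

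H3K4me3 in RUNX2 and RUNX3 lay inside the genes. In RUNX3 the single H3K4me3 peak (3546 bp, chr1:25253558-25257103) began 34.9 kb from the 5′ end, and the 2 starts of RUNX3 in the GRCh38.p14 table are 34.7 kb apart. In RUNX2 a peak of 1683 bp (chr6:45389192-45390874) began 93.2 kb from the 5′ end, and the 2 RUNX2 starts are 93.9 kb apart in that table. The other H3K4me3 peak of RUNX2 (1572 bp, chr6:45344674-45346245) began 48.7 kb inside. SUPT3H, a gene that overlaps RUNX2 on the opposite strand, has starts 49.3 and 49.6 kb from the distal RUNX2 start in the same table, so the peak cannot be assigned to 1 of these genes. All 4 windows together held 8 H3K4me3 peaks, and 7 overlapped a RUNX1 peak, beside 58.8% of all H3K4me3 peaks. BRG1 was found at 3 of the 8, beside 34.5% of all. The peak with no RUNX1 (1426 bp, chr16:67143385-67144810) lay in the downstream flank of CBFB, where PHAF1 is the neighbouring gene.

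RUNX1 occupied its own gene at several separated places. The RUNX1 window held 12 RUNX1 peaks of 175 to 1874 bp that covered 9.58 kb, and 11 of them touched the gene interval. They fell into a group at the 5′ end, single sites through the first part of the gene, and a group at the internal promoter. The widest, 1874 bp at chr21:36398370-36400243, began 21.8 kb into the gene and was rank 115 of 19893 RUNX1 peaks by width. It held a BRG1 peak of 502 bp (chr21:36398985-36399486) and an H3K4me3 peak of 276 bp (chr21:36398945-36399220). An intronic enhancer of RUNX1 active in blood stem cells is known between the distal and proximal promoters, and no file used here gives its position.

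The second widest RUNX1 peak of the gene, 1581 bp at chr21:36260175-36261755, lay in the internal H3K4me3 peak, 160.2 kb from the 5′ end. That H3K4me3 peak (6700 bp, chr21:36256004-36262703) was rank 23 of 12834 by width. It also held a RUNX1 peak of 786 bp and BRG1 peaks of 334 bp and 310 bp. At the 5′ end, the H3K4me3 peak of 4007 bp (chr21:36417918-36421924) overlapped RUNX1 peaks of 737 bp and 1129 bp, and another of 631 bp (chr21:36423449-36424079) lay upstream of the gene. Between the promoters, RUNX1 peaks of 1058 bp (74.7 kb inside, chr21:36346256-36347313) and 871 bp (37.4 kb inside, chr21:36383749-36384619) each held a BRG1 peak, of 304 bp and 513 bp. The remaining 4, of 318 bp (chr21:36359563-36359880), 228 bp (chr21:36264668-36264895), 194 bp and 175 bp, held no BRG1. The sixth BRG1 peak of the window, 302 bp at chr21:36306286-36306587, lay 115.4 kb inside the gene and had no RUNX1. No RUNX1 peak lay in the 96.0 kb from the internal H3K4me3 peak to the 3′ end, although DMSO H3K27ac covered 51.2% of it.

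**Figure D1:**
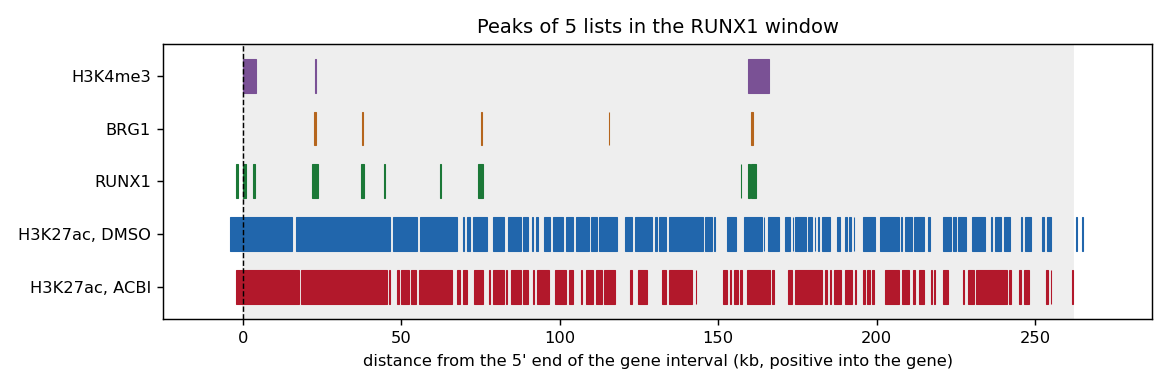
Peaks of the 5 lists in the RUNX1 window, drawn to scale as blocks against the distance in kb from the 5′ end of the gene interval (dashed line), positive into the gene; the gray band is the gene interval. RUNX1 and BRG1 peaks stop at the internal H3K4me3 peak near 160.2 kb, while H3K27ac runs on towards the 3′ end in DMSO and in ACBI.

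Of the 12 RUNX1 peaks in its own window, 4 overlapped BRG1 (33.3%, exact Clopper-Pearson 95% interval 9.92 to 65.1), beside 29.8% of all RUNX1 peaks. H3K4me3 was at 5 of 12 (41.7%, 15.2 to 72.3), beside 43% of all, and DMSO H3K27ac at 11 of 12 (91.7%, 61.5 to 99.8), beside 83.8% of all. ACBI H3K27ac was at 12 of 12, beside 64.3% of all. The first 3 shares were near those of the whole list. The intervals cover counting error only, and neighbouring peaks are not independent. The window held 3.85 RUNX1 peaks per 100 kb, and 2.32% of 10323 genome tiles of 300 kb held at least as many for their length. These are all tiles, with or without H3K27ac, so many are unlike a gene in use. Tiles counted a peak by its midpoint and windows by any overlap.

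RUNX2 was the member with the most BRG1 peaks in its window, though whether the number is unusual was not tested. Its window held 8 BRG1 peaks of 150 to 713 bp against 6 in RUNX1, and BRG1 was found at 6 of its 10 RUNX1 peaks (60.0%, 26.2 to 87.8), an interval that includes the 29.8% of all RUNX1 peaks. The widest BRG1 peak, 713 bp at chr6:45345185-45345897, lay wholly inside a RUNX1 peak of 911 bp at the H3K4me3 peak near the SUPT3H start. The widest RUNX1 peak, 1015 bp at chr6:45463185-45464199 and 167.2 kb into the gene, held a BRG1 peak of 427 bp and no H3K4me3. Of the other BRG1 peaks in RUNX1 peaks, those of 268, 150, 242 and 225 bp all lay away from H3K4me3. The BRG1 peaks of 354 bp (chr6:45291415-45291768, upstream of the gene) and 187 bp (chr6:45406741-45406927) had no RUNX1. The other RUNX1 peaks of RUNX2 measured 766 bp (chr6:45390145-45390910, at the internal H3K4me3 peak), 663, 631, 630, 568, 315 and 204 bp. Over the RUNX1 and RUNX2 windows, 11 of 14 BRG1 peaks overlapped RUNX1, beside 80.7% of all BRG1 peaks, and 4 of 14 overlapped H3K4me3, beside 61.8%. DMSO H3K27ac was at 12 of the 14 and ACBI H3K27ac at 11, beside 91.9% and 70.6% of all BRG1 peaks.

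RUNX3 and CBFB had no BRG1 peak in their windows. These windows are the shorter ones, of 116 and 122 kb, and the BRG1 list holds 7445 peaks over the whole genome. How many windows of this length hold no BRG1 peak was not counted, so whether the absence is unusual is not known. RUNX3 held 9 RUNX1 peaks, or 7.76 per 100 kb, the highest density of the 4 genes. As many for their length were in 0.614% of all 30947 tiles of 100 kb, again taken with or without H3K27ac. Most of the 9 peaks were narrow, with a median of 193 bp against 762 bp in the RUNX1 window. BRG1 overlapped 0 of 9 (95% interval 0 to 33.6%, which includes the 29.8% of all RUNX1 peaks). The widest, 867 bp at chr1:25278730-25279596, lay 12.4 kb inside the gene, and peaks of 503 and 199 bp lay at the internal H3K4me3 peak. Apart from these and the peak at the 5′ end, the RUNX1 peaks of RUNX3 measured 193, 186, 175, 175 and 175 bp. CBFB held 4 RUNX1 peaks: that of 1436 bp at its promoter, those of 679 bp (chr16:67047721-67048399) and 277 bp (chr16:67051971-67052247) upstream, and 1 of 417 bp (chr16:67086683-67087099) 23.7 kb inside the gene. The promoter peak lay wholly within the CBFB H3K4me3 peak (2648 bp, chr16:67062293-67064940), and the other 3 lay outside H3K4me3.

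**Figure D2:**
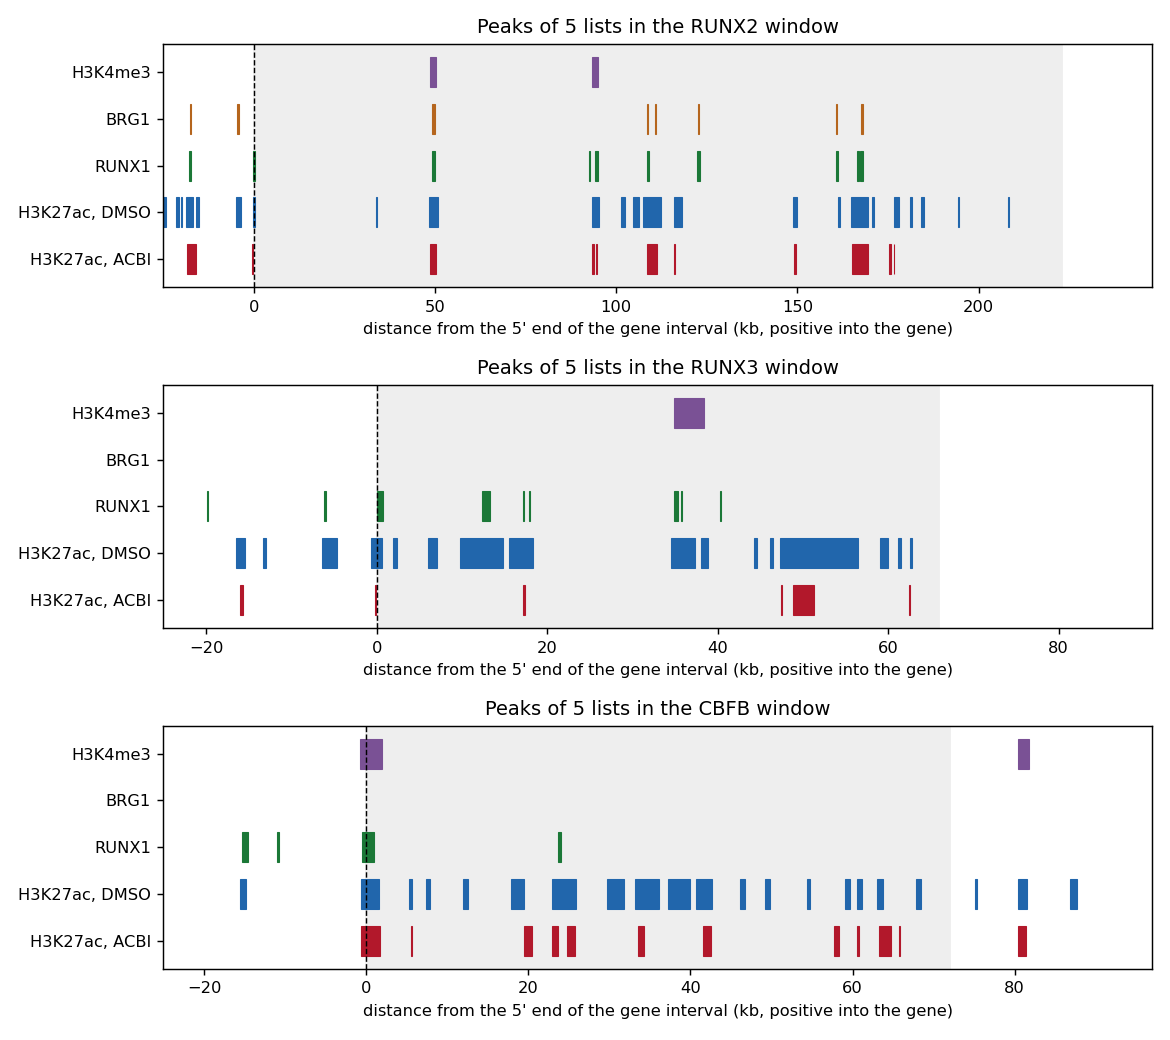
Peaks of the 5 lists in the RUNX2, RUNX3 and CBFB windows, drawn to scale against the distance in kb from the 5′ end of the gene interval (dashed line; gray band, gene interval). A RUNX1 peak sits at the 5′ end of each gene, the BRG1 row is empty in RUNX3 and CBFB, and RUNX3 keeps 6 H3K27ac peaks in ACBI of 166 to 2475 bp.

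The next comparison asked how H3K27ac at these genes differed between the degrader and its vehicle. The RUNX1 gene kept most of its acetylated length and RUNX3 little of it. In the RUNX1 window H3K27ac covered 185.2 kb in DMSO (59.4% of the window) and 160.7 kb in ACBI, a ratio of 0.868. In RUNX2 it covered 30.6 kb and 14.1 kb (ratio 0.460), in CBFB 25.3 kb and 10.7 kb (0.422) and in RUNX3 28.9 kb and 3.61 kb (0.125). Over the whole genome the ratio was 0.556, since the ACBI list is the shorter, with 52967 peaks against 90495. Shallower sequencing or more background in the ACBI library would also shorten its list. Depth is unknown, so this and an effect of the compound cannot be told apart.

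The 4 ratios were then set beside fixed tiles of the genome that held at least 5 kb of DMSO H3K27ac. Cover in ACBI was under 0.5 of that in DMSO in 3 of the 4 genes, beside 51.5% of tiles of 300 kb and 50.3% of tiles of 100 kb, so the count itself is near the background. A ratio at or below that of RUNX2 was found in 43.2% of 300 kb tiles, or 37.0% of those with at least 20 kb in DMSO. For CBFB it was 37.8% of 100 kb tiles, or 23.3% of those with at least 20 kb, so its place among the tiles was lower once thinly covered tiles were left out. RUNX3 lay at the low end, with 256 of 6184 tiles of 100 kb (4.14%) at or below its ratio, or 12 of 1918 (0.626%) among tiles with at least 20 kb in DMSO. RUNX1 lay towards the high end, with 286 of 3993 tiles of 300 kb (7.16%) at or above its ratio, or 7.03% of those with at least 20 kb. These tiles are mostly unlike the RUNX1 window. Only 0.0969% of all 10323 tiles of 300 kb had as much DMSO H3K27ac for their length. The median ratio was 0.494 in tiles with at least 5 kb and 0.519 in those with at least 20 kb. The place of RUNX1 among equally covered regions was not tested.

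**Figure D3:**
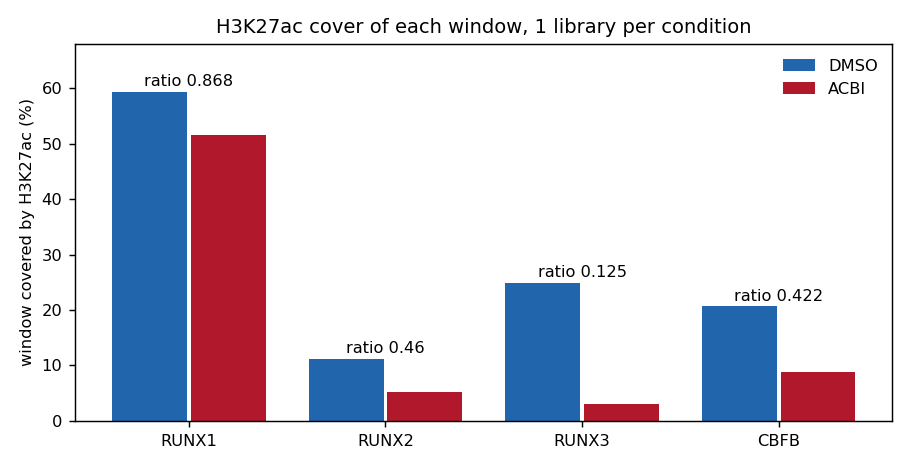
Percent of each window covered by H3K27ac peaks in DMSO (blue) and ACBI (red), 1 library each, with the ratio of ACBI to DMSO over each pair of bars. The ratio is highest in RUNX1 (0.868) and lowest in RUNX3 (0.125).

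**Figure D4:**
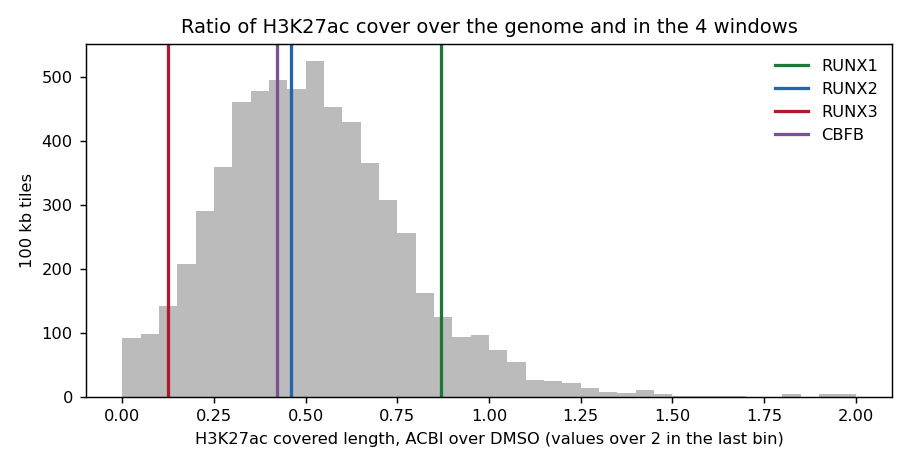
Number of 100 kb tiles of the genome (vertical axis) by the ratio of H3K27ac covered length in ACBI over DMSO, for 6184 tiles with at least 5 kb in DMSO. Colored lines mark the 4 gene windows: RUNX3 is in the low tail, CBFB and RUNX2 are to the left of the median tile (0.498) and RUNX1 is in the upper part.

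The acetylated region at the 5′ part of RUNX1 was among the broadest in the cell line. Its widest DMSO peak measured 29768 bp (chr21:36375467-36405234) and was rank 80 of 90495. The next, 19582 bp (chr21:36406346-36425927), covered the 5′ end and was rank 222, and a gap of 1111 bp separated them, so that together they spanned 50.5 kb. ACBI peaks covered 95.0% of the first and 91.5% of the second. The matching ACBI peaks measured 27087 bp (chr21:36376459-36403545, rank 47 of 52967) and 19981 bp (chr21:36404274-36424254, rank 97). DMSO peaks of 11670 bp, 10782 bp and 7330 bp farther inside were covered over 88.1%, 68.3% and 63.1%.

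At the internal promoter of RUNX1 the H3K4me3 peak was overlapped by 3 H3K27ac peaks in DMSO and by 1 in ACBI. The DMSO peaks measured 3551 bp (chr21:36252859-36256409), 178 bp (chr21:36257428-36257605) and 5589 bp (chr21:36258246-36263834), 9318 bp in all, and the ACBI peak 7168 bp (chr21:36255692-36262859). Within the H3K4me3 peak the mark covered 5.04 kb of 6.7 kb in DMSO, with gaps between the pieces, and all 6.7 kb in ACBI. From the 5′ end to this promoter cover was 126.5 kb in DMSO and 106.1 kb in ACBI, a ratio of 0.838, and from it to the 3′ end 49.2 kb and 45.7 kb, a ratio of 0.929. Of the ACBI cover of the window, 28.4 kb (17.7%) lay outside DMSO peaks, beside 20.3% over the genome, and 71.4% of the DMSO cover lay inside ACBI peaks, beside 44.3% over the genome.

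Peaks of DMSO without any overlapping ACBI peak, called lost here, numbered 11 of 59 in RUNX1 (18.6%, 9.69 to 30.9), 14 of 23 in RUNX2 (60.9%, 38.5 to 80.3), 11 of 16 in RUNX3 (68.8%, 41.3 to 89.0) and 13 of 21 in CBFB (61.9%, 38.4 to 81.9). The share over all DMSO peaks was 59.1%. Wide peaks are seldom called lost, because 1 bp of overlap keeps them. All DMSO peaks of the same widths, in 10 width bins, would give 38.9% in RUNX1, 53.9% in RUNX2, 53.8% in RUNX3 and 56.5% in CBFB. For RUNX1 this value lies above the interval of the share lost, and for the other 3 genes it lies inside it. These intervals count neighbouring peaks as independent, which they are not. The 11 lost peaks of RUNX1 were narrow, with a median of 415 bp. None of the 11 held a RUNX1, BRG1 or H3K4me3 peak, but few DMSO peaks of the window did: 5, 4 and 5 of 59, beside 14.4%, 6.87% and 11.7% of all DMSO peaks. The widest measured 2058 bp (chr21:36274031-36276088), followed by peaks of 944, 744, 443 and 436 bp.

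In RUNX3 the losses took in the internal promoter and the widest RUNX1 site, while the DMSO peak at the 5′ end (1201 bp, chr1:25291399-25292599) kept 201 bp. Lost peaks were those of 2776 bp (chr1:25254695-25257470) and 912 bp (chr1:25253091-25254002) over the internal H3K4me3 peak, which then had no ACBI H3K27ac at all, and of 5056 bp (chr1:25277211-25282266) around the RUNX1 peak of 867 bp. The next widest lost peaks measured 1735 bp (chr1:25296640-25298374), 1065 bp (chr1:25284914-25285978) and 989 bp (chr1:25231963-25232951). The largest DMSO peak of the gene, 9120 bp (chr1:25235589-25244708, rank 1181 of 90495), held no RUNX1 peak and was covered by ACBI peaks over 2658 bp. That is most of the 3.61 kb left in the window. A DMSO peak of 2817 bp (chr1:25273647-25276463) kept 166 bp. The RUNX3 peak was the only one of the 8 H3K4me3 peaks of the 4 windows without ACBI H3K27ac. DMSO H3K27ac overlapped all 8 and ACBI H3K27ac 7, beside 92.8% and 78.5% of all H3K4me3 peaks.

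RUNX2 and CBFB lay between these. In RUNX2 the peak at the SUPT3H start kept 1790 bp of 2316 bp, and the peak of 4794 bp (chr6:45460818-45465611) that holds the widest RUNX1 site kept 4275 bp. The widest DMSO peak of RUNX2, 5053 bp (chr6:45403278-45408330), kept 2670 bp, and that of 2095 bp (chr6:45412035-45414129) kept 284 bp. Over the internal H3K4me3 peak near the second RUNX2 start, a DMSO peak of 2031 bp (chr6:45389301-45391331) stood against ACBI pieces of 482 bp and 165 bp. The widest lost peaks of RUNX2 measured 1642, 1361, 1250, 1005 and 892 bp. In CBFB the promoter peak of 2228 bp (chr16:67062368-67064595) was covered in full, by an ACBI peak of 2435 bp, while the 3 widest lost peaks, of 2702 bp (chr16:67100200-67102901), 2085 bp (chr16:67092705-67094789) and 1563 bp (chr16:67080872-67082434), lay within the gene. The next widest lost peaks of CBFB were 884 bp in the downstream flank (chr16:67149772-67150655) and 697 bp in the gene (chr16:67122042-67122738). The widest DMSO peaks of CBFB, of 3000 bp (chr16:67096146-67099145) and 2914 bp (chr16:67085947-67088860), kept 820 bp and 1677 bp. The H3K27ac peak at the PHAF1 side kept 876 of 1064 bp.

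ACBI peaks without an overlapping DMSO peak, called gained, numbered 9 of 60 in RUNX1, 2 of 11 in RUNX2, 0 of 6 in RUNX3 (95% interval 0 to 45.9%) and 3 of 12 in CBFB, beside 21.4% of all ACBI peaks. The widest was 1152 bp in RUNX1 (chr21:36269198-36270349). A gained peak of 437 bp (chr21:36264637-36265073) covered the RUNX1 peak of 228 bp near the internal promoter, which was the only RUNX1 peak of that window outside DMSO H3K27ac. The other gained peaks of RUNX1 included those of 477, 404 and 347 bp. Those of CBFB measured 968, 635 and 168 bp and those of RUNX2 662 and 188 bp.

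The RUNX1 sites themselves were followed last. Of the RUNX1 peaks that lay in DMSO H3K27ac, 11 of 11 in the RUNX1 window still overlapped H3K27ac in ACBI (95% interval 71.5 to 100), beside 76.1% of all such RUNX1 peaks. In RUNX2 it was 6 of 8 (34.9 to 96.8), in CBFB 1 of 3 and in RUNX3 1 of 7 (14.3%, 0.361 to 57.9). The interval of RUNX3 lies below the share of the whole list, but it counts the 7 peaks as independent. They lie in only 5 DMSO H3K27ac peaks of 1 window, and the 11 peaks of the RUNX1 window also lie in 5. The intervals are therefore too narrow to set either gene apart from the whole list. The CBFB site was the promoter, and the RUNX3 site was a peak of 186 bp (chr1:25274664-25274849) covered over 106 bp. At the 5′ ends, ACBI H3K27ac covered the whole RUNX1 peak in RUNX1 and CBFB and none of it in RUNX2 and RUNX3, where DMSO H3K27ac had covered 434 of 434 bp and 612 of 753 bp. ACBI peaks of 263 bp and 201 bp lay within 1 kb of the 5′ ends of RUNX2 and RUNX3, beside the RUNX1 peak. The 2 genes with the RUNX1 peak still covered are those with H3K4me3 at the 5′ end. A link was not tested, and other sites varied. Of RUNX1 peaks on H3K4me3, 2 of 2 in RUNX2 overlapped ACBI H3K27ac, whereas those of 503 and 199 bp in RUNX3 did not. In the RUNX1 window all 12 RUNX1 peaks overlapped it, and only 5 of these 12 were on H3K4me3.

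**Figure D5:**
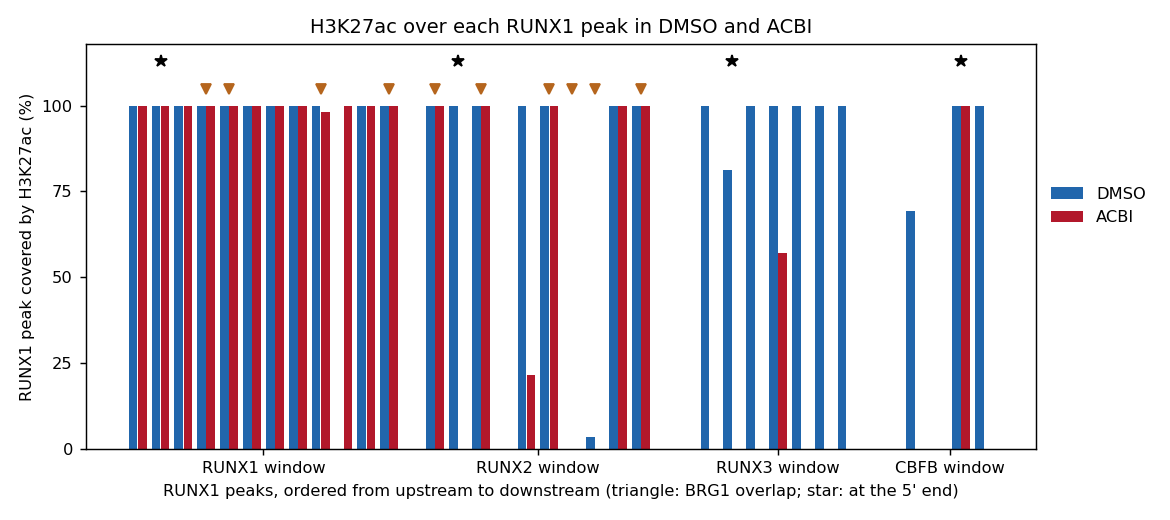
Percent of each of the 35 RUNX1 peaks covered by H3K27ac in DMSO (blue) and ACBI (red), ordered from upstream to downstream within each window; triangles mark overlap with BRG1 and stars the peak at the 5′ end. All 12 peaks of the RUNX1 window overlap H3K27ac in ACBI, against 6 of 10 in RUNX2, 1 of 9 in RUNX3 and 1 of 4 in CBFB. The share of all RUNX1 peaks is 64.3%. In DMSO the counts are 11 of 12, 8 of 10, 7 of 9 and 3 of 4, beside 83.8% of all.

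BRG1 was present at some kept and some lost sites. Over the 4 windows, ACBI H3K27ac was still found at 8 of 9 RUNX1 peaks with BRG1 (51.8 to 99.7) and at 11 of 20 without it (31.5 to 76.9), beside 78.9% and 74.7% of all RUNX1 peaks in DMSO H3K27ac. All sites with BRG1 lie in RUNX1 and RUNX2, and within these 2 windows H3K27ac was kept at 8 of 9 sites with BRG1 and at 9 of 10 without it (55.5 to 99.7). The exception with BRG1 was the RUNX2 peak of 568 bp (chr6:45456529-45457096), of which only 20 bp lay in DMSO H3K27ac. Of the DMSO H3K27ac peaks with BRG1 in the 4 windows, 8 were kept and 1 was lost. The lost one (1250 bp, chr6:45291154-45292403) lay upstream of RUNX2 and held the BRG1 peak of 354 bp, which has no RUNX1. The same count over all DMSO peaks with BRG1 was not made. RUNX1 and BRG1 were not profiled after ACBI in the lists used here, so their occupancy under the degrader is not known.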

How the data were processed

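Of 9 samples, 5 had a peak list. The other 4 were controls and were not analysed here. By their labels, the control for RUNX1 was an input and the rest were IgG, so the RUNX1 library differs from the others in its control. Whether it also differs in method is not certain. The authors deposited each list as chromosome, start, end and peak name, with no score and no other value per peak, so the values are positions in bp, without normalization, and read depth is unknown. Per the submitters' processing notes, coordinates are in hg19, and MACS2 and SEACR were used. The RUNX1 list holds MACS2 peaks and the H3K27ac lists broad peaks, per the file headers. Further settings were not given in the sources used here. Lists of different antibodies were made with different settings, so their lengths cannot be compared.

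Members, lists and sites were chosen with earlier results of these data known. Named sites are the H3K4me3, BRG1 and RUNX1 peaks of each window, up to the 10 widest, and the 5 widest DMSO, lost and gained H3K27ac peaks; others named were chosen after their values were seen. Overlap means at least 1 bp, and covered length was counted inside the window. Intervals are exact Clopper-Pearson 95% intervals. Tiles start at position 0 of each chromosome. Tiles with at least 20 kb were added after seeing the data. Computation used Python 3.11.15, numpy 2.4.6, scipy 1.17.1 and matplotlib 3.10.9. Overlap counts were tested on 2000 simulated peaks and checked against bedtools 2.31.1 for 20 ordered pairs of lists, with 0 peaks differing. RefSeq tables (GRCh38.p14) gave names, neighbours, strands, promoter sequences and distances between starts within that build; the CBFB promoter was not used. Cofactor genes and T-lineage markers listed for this work were not located, since no hg19 annotation was used, and the cell type was not checked against markers.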

Additional observations from a re-analysis of the deposited data

How the results depend on the processing

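The ratio of H3K27ac covered length (ACBI over DMSO) stayed in the same order under all settings for RUNX1 at the top and RUNX3 at the bottom. For RUNX1, RUNX2, RUNX3 and CBFB in turn it was 0.877, 0.457, 0.120 and 0.417 over the gene interval alone, 0.865, 0.448, 0.110 and 0.486 with flanks of 50 kb, 0.862, 0.436, 0.0908 and 0.425 with peaks of at least 500 bp, and 0.894, 0.497, 0.135 and 0.474 with both H3K27ac lists cut to the same number of their widest peaks. Without the widest DMSO peak of each window and the ACBI cover over it, a setting chosen after seeing the data, it was 0.852, 0.446, 0.0481 and 0.442, so 1 peak holds most of what RUNX3 kept. The share of DMSO peaks lost in RUNX1 was 40.7% if at least 50% cover was required, 8.47% when an ACBI peak within 1 kb was accepted, 9.30% with peaks of at least 500 bp and 7.14% with the lists cut to the same length. In RUNX3 it was 100% under the 50% requirement and 90.9% with peaks of at least 500 bp. The share over all DMSO peaks was not computed under these settings. Whether these values are unusual is therefore not known. The other 14 of 20 alternatives for shares lost stayed within the counting interval. With 50% of the RUNX1 peak covered, 8.33% of the RUNX1 peaks in the RUNX1 window were on BRG1, and the other 11 of 12 alternatives for those peaks stayed within the interval. No paired analysis was possible because each group has 1 library. Depth is unknown, and no interval covers the spread between cultures.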
